A study of Homo sapiens with 6 samples.

Results

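The genes of glucose uptake, glycolysis, lactate handling and the hypoxia response were examined in HCT116 cells with and without PLEK2 knockdown. Members were the rows of the deposited expression table whose gene symbol was on a list of 34 genes, and all 34 had a row among the 17047 genes of the table and were among the 12959 genes tested. HCT116 is a human colorectal carcinoma cell line. The 3 shNC libraries came from cells carrying a non-targeting shRNA and the 3 PLEK2 shRNA libraries from cells carrying an shRNA against PLEK2, a membrane and cytoskeleton associated protein with pleckstrin homology domains, and the study lists a single PLEK2 shRNA, delivered by a viral vector. Poly(A) RNA was sequenced in short single-end reads. No source states whether the libraries of a group were separate cultures, so p-values measure only the spread between these samples. The comparison asks how the knockdown altered gene expression.

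Glycolysis converts glucose to pyruvate in the cytosol and yields ATP without oxygen. Glucose enters through SLC2A transporters, is trapped by hexokinases and is committed to the pathway by phosphofructokinase, and tumor cells commonly reduce much of the pyruvate to lactate, which leaves through monocarboxylate transporters. Many of the steps can be run by more than 1 isozyme, and the hypoxia-inducible factor HIF1, whose oxygen-sensitive subunit is HIF1A, is known to induce many of these genes through a short DNA element, the hypoxia response element.

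Library totals ranged from 14378000 to 15603000 estimated counts. PLEK2 itself measured 86.0, 72.6 and 82.9 CPM (counts relative to library size, scaled by the TMM factors of edgeR) in the shNC libraries and 16.02, 32.2 and 34.9 CPM in the PLEK2 shRNA libraries, so the groups did not overlap. Its log2 fold change was -1.54 (SE 0.24, edgeR quasi-likelihood test, adjusted p = 0.684), and with the replicate number as a block it was -1.57 (SE 0.17, adjusted p = 0.00106). Replicate 1 of both groups stood apart from replicates 2 and 3, and for several genes the result is given with and without it. Of 10 colorectal epithelial markers, EPCAM, KRT8, KRT18, KRT19, CDH1 and CDX2 were well detected, whereas CDH17, VIL1, LGALS4 and CEACAM5 were close to 0. Summed leukocyte and endothelial markers were at most 0.27 and 0.19 FPKM (a level scaled to transcript length and library size) in any library, and summed fibroblast markers at most 6.02 FPKM. PTPRC and DCN of these lists were not analysed here.

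To determine which isozyme had the most RNA at each step in the control cells, RNA levels per length were compared. Isozyme proteins were not compared. The 34 genes together held between 2.54% and 2.65% of the summed FPKM of a library. GAPDH, the dehydrogenase of the lower pathway, was the highest at 5466 ± 66.3 FPKM (SD, n = 3), rank 2 in the whole table. It was followed by the enolase ENO1 at 1694 ± 39.1 FPKM, the aldolase ALDOA at 1414 ± 121 FPKM and the pyruvate kinase PKM at 920.5 ± 52.2 FPKM, and none of these neighbors overlapped in the shNC libraries. The triosephosphate isomerase TPI1 (628 ± 34.2 FPKM) and the lactate dehydrogenase LDHA (591 ± 49.9 FPKM) overlapped. LDHB stood below LDHA in every shNC library, at 517 ± 35.4 FPKM.

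The middle of the order held the glucose transporter SLC2A1 at 380 ± 57.9 FPKM, which overlapped the phosphoglycerate mutase PGAM1 at 377 ± 12.6 FPKM. Below them were the glucose-6-phosphate isomerase GPI at 307 ± 20.2 FPKM, the phosphoglycerate kinase PGK1 at 214 ± 21.5 FPKM, the lactate transporter SLC16A3 at 211 ± 21.5 FPKM and the phosphofructokinase PFKP at 192 ± 3.34 FPKM, where PGK1 overlapped SLC16A3 and SLC16A3 overlapped PFKP. From ALDOC at 56.3 ± 4.20 FPKM and PFKL at 55.8 ± 1.09 FPKM, which overlapped, the levels passed through the lactate transporter SLC16A1 at 47.7 ± 3.19 FPKM to a run of 10 genes between 37.8 and 21.2 FPKM in which every neighbor overlapped the next. In order of mean level these were PDHA1, HIF1A, ADM, PFKM, PDHB, HK1, ENO2, BHLHE40, HK2 and PFKFB3. The overlap is of ranges across libraries. Compared within each shNC library, PFKM lay above PDHB, PDHB above HK1, HK1 above ENO2 and HK2 above PFKFB3 every time.

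Below this run lay some of the regulators and hypoxia targets, and SLC2A3. VEGFA, the angiogenic growth factor, measured 15.4 ± 1.62 FPKM, PFKFB4 10.5 ± 0.51 FPKM and the pyruvate dehydrogenase kinase PDK1 8.56 ± 0.88 FPKM. PFKFB2 (4.42 ± 0.90 FPKM), PDK3 (3.75 ± 0.21 FPKM), the carbonic anhydrase CA9 (3.70 ± 0.38 FPKM) and the HIF prolyl hydroxylase EGLN3 (3.43 ± 0.91 FPKM) overlapped each with the next. SLC2A3, the other glucose transporter among the members, was at 0.76 ± 0.07 FPKM and rested on 34 to 50 counts per library. The plot of levels by library spans this range.

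**Figure D1:**
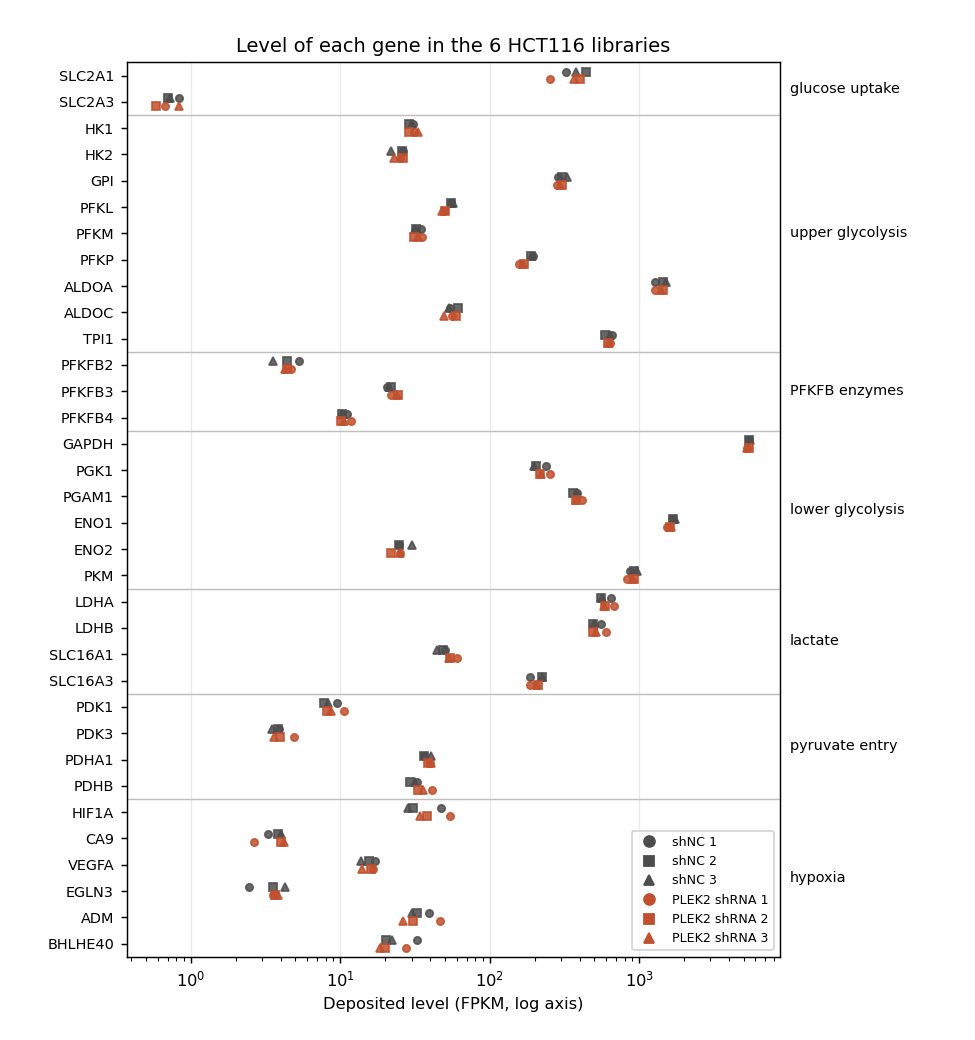
Level of each of the 34 genes in FPKM on a log axis, grouped by role, with 1 point per library (shNC grey, PLEK2 shRNA orange, the shape giving the replicate number). GAPDH lies at 5265 FPKM or more and SLC2A3 below 1 FPKM in all 6 libraries, and the groups lie close together for most genes.

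Within families the choice of isozyme was lopsided in some steps and even in others. SLC2A1 supplied 99.8% ± 0.050 of the SLC2A1 and SLC2A3 level in the shNC libraries (mean ± SD, n = 3), ENO1 98.5% ± 0.15 of the enolase level and ALDOA 96.2% ± 0.38 of the aldolase level. PFKP, the platelet-type phosphofructokinase, held 68.5%, 68.5% and 68.2% of its family in shNC replicates 1, 2 and 3, ahead of the liver type PFKL at 19.9% ± 0.54 and the muscle type PFKM at 11.7% ± 0.37. RNA of all 3 phosphofructokinases was thus present, in a fixed order in each library.

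Among the bifunctional enzymes that set fructose 2,6-bisphosphate, the strongest known activator of phosphofructokinase, PFKFB3 held 58.7% ± 2.81, PFKFB4 29.1% ± 1.11 and PFKFB2 12.2% ± 2.16. SLC16A3, also known as MCT4 and known as a lactate exporter of glycolytic cells, held 81.5% ± 2.39 of the SLC16A1 and SLC16A3 level. Of the pair PDK1 and PDK3, PDK1 held 69.4% ± 1.91, but PDK2, which is no member, was above both in every shNC library, at 13.3, 14.2 and 14.5 FPKM. PDK enzymes inactivate pyruvate dehydrogenase, whose E1 subunits are encoded by PDHA1 and PDHB. Shares here are of the members only, and the further family genes HK3, HKDC1, PFKFB1, ENO3, LDHC, SLC16A7 and PDK4 each lay below the members of their own family in all shNC libraries. The transporters SLC2A8 and SLC2A6, also no members, were above SLC2A3 in every shNC library. SLC2A8 measured 7.89, 8.84 and 9.95 FPKM and SLC2A6 6.38, 5.3 and 5.27 FPKM, both below SLC2A1.

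By FPKM, lactate dehydrogenase and hexokinase were the most evenly divided of the 9 families. LDHA, which encodes the muscle-type subunit, held 53.8%, 53.3% and 53.0% of the LDHA and LDHB level in the shNC libraries, and LDHB, the heart-type subunit, the remaining 46.7% ± 0.42. HK1 held 54.9% ± 2.78 and HK2, the hexokinase commonly raised in tumors, 45.1% ± 2.78. Both depend on the scale, since by share of estimated counts, without the length, HK1 held 42.7% and LDHA 66.8%, while PDK1 held 53.8%. The table is per gene and does not part splice forms such as those of PKM.

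**Figure D2:**
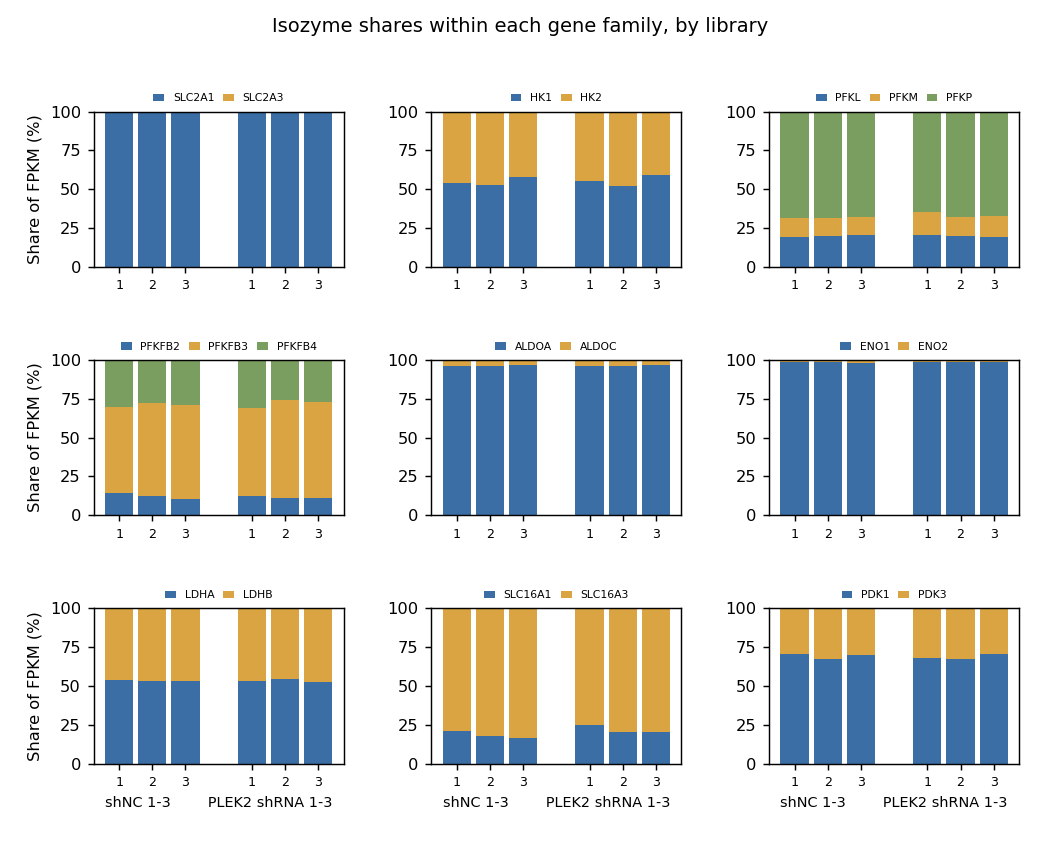
Share of each isozyme in the summed FPKM of its family (percent, bars adding to 100), with 1 bar for each of shNC 1 to 3 and PLEK2 shRNA 1 to 3. SLC2A1, ALDOA and ENO1 fill nearly the whole bar, while LDHA and LDHB divide it into similar parts in every library.

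Isozyme shares were then compared between the groups. The PFKP share was 64.9%, 67.6% and 67.5% in PLEK2 shRNA replicates 1, 2 and 3, each below all shNC libraries, with a mean of 66.7% ± 1.54 against 68.4% ± 0.19. Without PLEK2 shRNA replicate 1 the knockdown mean was 67.6%, and the difference went from -1.73 to -0.84 percentage points. The PFKM share was the higher one in the knockdown, with 13.4% ± 1.15 against 11.7% ± 0.37, whereas the PFKL share was 19.9% in both groups. A two-sided exact permutation test of the PFKP share gave p = 0.1, the smallest p that 3 against 3 libraries allow, and 0.9 after Benjamini-Hochberg adjustment over the 9 families tested. The SLC16A3 share was 78.1% ± 2.33 in the knockdown (exact permutation p = 0.3), and it was lower in all 3 pairs, with differences of -3.40, -2.61 and -4.02 percentage points. Without PLEK2 shRNA replicate 1 its difference went from -3.34 to -2.00 percentage points. For PFKP the differences within pairs were -3.63, -0.90 and -0.67 percentage points. An exact test that flips the signs of the pairs gave p = 0.25 for both, the smallest that 3 pairs allow. In the other 7 families the share of the member with the highest level differed by at most 1.82 percentage points, which was the PFKFB3 share, and that was 3.46 without PLEK2 shRNA replicate 1. The estimated counts of PFKM and SLC16A3 were whole in none of the libraries, which makes their shares less certain than those of genes with whole counts.

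Sequences upstream of the genes were read to show where core letters of the hypoxia response element lie. The core is ACGTG or GCGTG. The letters ACGTG were searched on both strands, so that CACGT in print is the same match on the other strand. The 5 letters also lie within CACGTG, the E-box bound by MYC and by BHLHE40-type factors. Windows ran from 250 bases before to 50 after each annotated start (RefSeq, GRCh38.p14), and 30 of the 34 genes matched, with 57 windows. ACGTG was present in 22 of the 57 windows (38.6%) against 21.4% of all 35116 windows, CACGTG in 14.04% against 7.26%, and GCGTG in 42.1% against 36.5%, so the second core was nearer to its background. Below, sites of 25 bases upstream of the start are shown 5′ to 3′ on the gene's strand with each ACGTG match on either strand in capitals, for 4 well-known hypoxia-responsive genes and then for 4 genes whose differences are described further on.
CA9 (chr9:35673900-35673924, plus strand): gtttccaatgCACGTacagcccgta
LDHA (chr11:18394467-18394491, plus strand): cccgactcaCACGTGggttcccgca
PGK1 (chrX:78104036-78104060, plus strand): ggcgtgccggACGTGacaaacggaa
PDK1 (chr2:172556063-172556087, plus strand): tgctgcccgcCACGTccctCACGTa
PFKP (chr10:3069040-3069064, plus strand): acgagcgcctACGTGatgcccggcc
ENO2 (chr12:6914452-6914476, plus strand): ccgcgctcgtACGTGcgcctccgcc
PDHB (chr3:58433850-58433874, minus strand): ggggcctgctCACGTctgccggccc
BHLHE40 (chr3:4979253-4979277, plus strand): cagtggccagACGTGcctggagtca

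The CA9 match lies 18 bases before its start and the PFKP match 139 bases before. The LDHA match shown is part of an E-box as well, as its CACGTG shows, and the PDK1 stretch holds 2 matches. LDHA, PGK1, PDHB and BHLHE40 had further upstream matches that are not shown, some of them in an E-box. The median log2 fold change (PLEK2 shRNA over shNC) was -0.05 for the 18 genes with an ACGTG match and 0.01 for the 12 without. For GCGTG the order was the opposite, -0.003 with and -0.06 without. A match is a run of letters and was not tested as a binding site.

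To determine whether the knockdown changed these genes, the groups were compared with edgeR. No member passed an adjusted p of 0.05 in the quasi-likelihood test, nor did any of the 12959 genes (0%), and the smallest adjusted p of a member was 0.968. At an unadjusted p under 0.05, 3 of the 34 members were counted, PFKP, PFKL and SLC16A1 (3.09% of all genes). The same numbers were shared by the libraries of both groups, and with the number as a block 110 genes (0.849%) passed the adjusted threshold, none of them a member, with a smallest adjusted p of 0.0588 for PFKP. In the block fit, 9 members, 26.5%, had an unadjusted p under 0.05 (18.3% of all genes). DESeq2's Wald test without the block called 12 genes (0.0926%) and no member.

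The members differed little in size. The median log2 fold change was -0.02 over the members and -0.002 over all genes, and the median size without regard to sign was 0.076 over the members and 0.098 over all genes. For 31 of the 34 the 95% interval of the log2 fold change lay within 1.5-fold in either direction, the exceptions being SLC2A3, HIF1A and BHLHE40. Fold changes ran from -0.25 for PFKP to 0.22 for HIF1A. In bulk RNA, fewer cells that express a gene and less RNA per cell cannot be told apart.

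Within same-numbered pairs, 12 members were lower in the PLEK2 shRNA library of all 3 pairs (21.1% of all genes) and 8 were higher in all 3 (19.9% of all genes), while 14 were mixed. With libraries scaled by their totals in place of TMM, 6 members were lower and 9 higher in all 3 pairs (15.8% and 26.8% of all genes), so the balance of directions depends on the scaling. Groups did not overlap for 5 members that were lower, PFKL, PFKP, GAPDH, ENO1 and ENO2 (5.12% of all genes), and for 1 that was higher, SLC16A1 (4.08% of all genes). With library totals GAPDH and ENO2 overlapped between the groups, and PDHA1 and PDHB, both higher, did not.

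**Figure D3:**
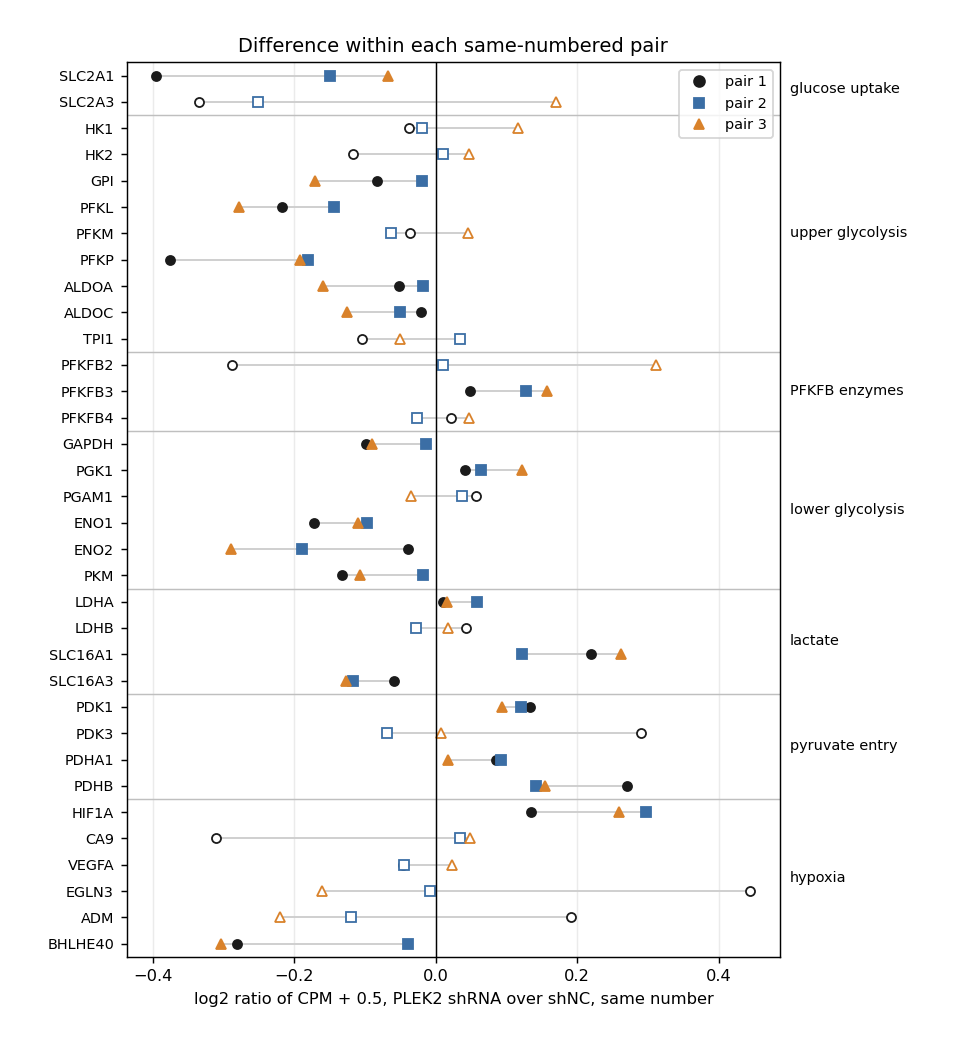
Log2 ratio of PLEK2 shRNA to shNC (TMM-scaled CPM plus 0.5) within pairs 1, 2 and 3 for each gene, filled symbols marking the 20 genes with 1 direction in all 3 pairs and open symbols the 14 mixed ones. Most points lie within 0.3 of 0, and under this scaling 9 genes of upper and lower glycolysis lie to the left in all pairs, against 3 with library totals.

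Of the glucose transporters, SLC2A1, which encodes GLUT1, was lower in all 3 pairs. It measured 1158, 1570 and 1348 CPM in shNC replicates 1, 2 and 3 and 880 (replicate 1), 1415 (replicate 2) and 1287 (replicate 3) CPM in the knockdown. The groups overlapped, replicate 1 being the lowest library of each. SLC2A1 had a log2 fold change of -0.19 (SE 0.17, edgeR unadjusted p = 0.316), and with the block -0.20 (SE 0.06, unadjusted p = 0.0078, adjusted p = 0.131). Without PLEK2 shRNA replicate 1 it was -0.01, and without shNC replicate 1 it was -0.28. With number 1 left out of both groups and the block kept, it was -0.10. SLC2A3, at under 4 CPM, was mixed.

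In upper glycolysis, 5 of 9 genes were lower in all 3 pairs and 4 were mixed, with a median log2 fold change of -0.06. With library totals only PFKL and PFKP of these were lower in all pairs, and HK1 was higher in all. The phosphofructokinases PFKP and PFKL catalyze the committing step. PFKP measured 499.8, 485 and 477 CPM in shNC and 385, 428 and 418 CPM in the knockdown, so every knockdown library lay below every control. Its log2 fold change was -0.25 (SE 0.07, edgeR unadjusted p = 0.0084), with the block -0.25 (SE 0.06, adjusted p = 0.0588). With the block fitted in DESeq2, PFKP was the only member called, at an adjusted p of 0.0349 (0.44% of all genes).

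PFKL measured 158, 156 and 160 CPM in shNC and 136, 141 and 132 CPM in the knockdown. All 3 knockdown libraries lay below the controls, whose own range was narrow. For PFKL the log2 fold change was -0.21 (SE 0.07, edgeR unadjusted p = 0.0163), with the block -0.21 (SE 0.05, adjusted p = 0.0779). PFKM, the third of the family, was mixed, with 101, 93.6 and 90.4 CPM in shNC and 98.6, 89.5 and 93.3 CPM in the knockdown. GPI, ALDOA and ALDOC were lower in all 3 pairs, with log2 ratios between -0.17 and -0.02, and the hexokinases and TPI1 were mixed.

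None of the PFKFB genes had an unadjusted p under 0.05 in either fit. PFKFB3, the isozyme with the strongest kinase activity, had the smallest p of them and was higher in all 3 pairs. It measured 84.7, 90.8 and 86.4 CPM in shNC and 87.6, 99.3 and 96.4 CPM in the knockdown, and the groups overlapped through knockdown replicate 1. The log2 fold change was 0.11 (SE 0.08, edgeR unadjusted p = 0.207), with the block 0.11 (SE 0.06, unadjusted p = 0.0664). PFKFB2 and PFKFB4 were mixed.

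In lower glycolysis, 4 of 6 genes were lower in all 3 pairs (GAPDH, ENO1, ENO2 and PKM), PGK1 was higher in all 3 and PGAM1 was mixed, and with library totals only ENO1 of the 4 was lower in all pairs. ENO1, the enolase of most tissues, measured 2767, 2821 and 2866 CPM in shNC and 2457, 2638 and 2655 CPM in the knockdown. The groups did not overlap, and the gap between the lowest control and the highest knockdown library was smaller than the range within the knockdown. Its log2 fold change was -0.13 (SE 0.07, edgeR unadjusted p = 0.105), with the block -0.13 (SE 0.05, unadjusted p = 0.0375, adjusted p = 0.241).

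ENO2, the neuron-type enolase, measured 57.2, 57.4 and 69.1 CPM in shNC and 55.7, 50.3 and 56.5 CPM in the knockdown. The groups lay next to each other, with shNC replicate 3 above all other libraries. ENO2 had a log2 fold change of -0.18 (SE 0.10, edgeR unadjusted p = 0.124), with the block -0.17 (SE 0.07, unadjusted p = 0.0191, adjusted p = 0.183), and without shNC replicate 3 it was -0.07. GAPDH, often used as a loading control, measured 6312, 6324 and 6407 CPM in shNC and 5896, 6264 and 6018 CPM in the knockdown, with a log2 fold change of -0.07 and a 95% interval from -0.22 to 0.08.

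**Figure D4:**
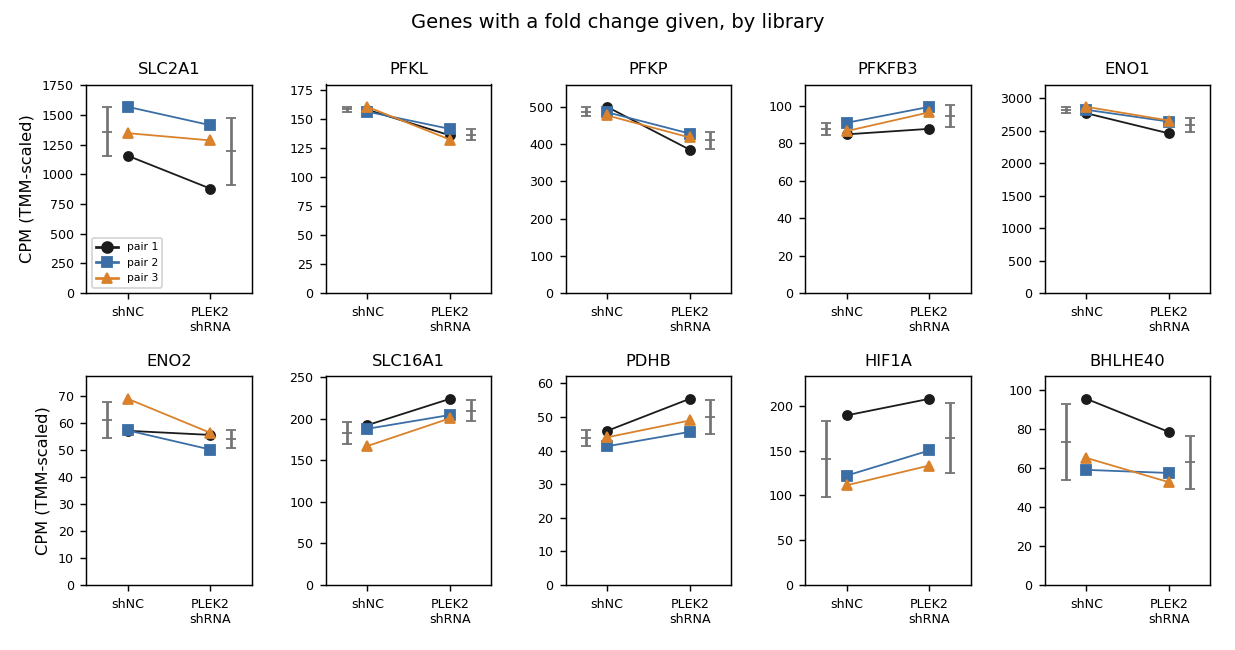
TMM-scaled CPM by library for the 10 genes whose fold changes are given with their errors, lines joining same-numbered libraries and grey bars showing mean ± SD of each group (n = 3). For PFKL, PFKP and SLC16A1 the groups are apart, and for SLC2A1, HIF1A and BHLHE40 the spread within a group is wide while the lines run the same way.

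Of the lactate genes, the transporters differed in direction and the dehydrogenases lay close to 0. SLC16A1, also known as MCT1, carries lactate in either direction and measured 192, 188 and 167 CPM in shNC and 224, 205 and 201 CPM in the knockdown. Every knockdown library lay above every control. For SLC16A1 the log2 fold change was 0.20 (SE 0.09, edgeR unadjusted p = 0.0457), with the block 0.20 (SE 0.05, adjusted p = 0.0898). Without PLEK2 shRNA replicate 1 it was 0.15 (edgeR unadjusted p = 0.121), and without shNC replicate 1 it was 0.25. With number 1 left out of both groups and the block kept, it was 0.20. With the block and library totals, SLC16A1 and HIF1A were called (1.48% of all genes), SLC16A1 at an adjusted p of 0.0456.

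SLC16A3 measured 362, 434 and 429 CPM in shNC and 347, 400.2 and 393 CPM in the knockdown, lower in all 3 pairs but with overlapping groups and a log2 fold change of -0.10 (95% interval -0.32 to 0.12). LDHA had log2 ratios of 0.01, 0.06 and 0.02 in pairs 1, 2 and 3, and its fold change of 0.03 had a 95% interval from -0.18 to 0.24. LDHB was mixed, with a fold change of 0.01 (95% interval -0.20 to 0.22). A difference of the lactate dehydrogenases beyond these bounds was thus not seen at this depth and spread.

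Among pyruvate dehydrogenase and its kinases (pyruvate entry in the figures), PDK1, PDHA1 and PDHB were higher in all 3 pairs and PDK3 was mixed. The median log2 fold change was 0.10 over the 4 genes, and the same 3 genes were higher in all pairs with library totals. PDHB, the beta subunit of the E1 enzyme, measured 45.9, 41.3 and 44.0 CPM in shNC and 55.4, 45.6 and 49.0 CPM in the knockdown. The groups overlapped only through knockdown replicate 2, which lay just below shNC replicate 1. PDHB had a log2 fold change of 0.19 (SE 0.10, edgeR unadjusted p = 0.091), with the block 0.19 (SE 0.06, unadjusted p = 0.0098, adjusted p = 0.147), and without PLEK2 shRNA replicate 1 it was 0.11. It was 0.24 without shNC replicate 1, and 0.155 with number 1 left out of both groups and the block kept. The kinase PDK1 and its target subunit PDHA1 had fold changes of 0.12 and 0.06, and the estimated counts of PDHA1 were not whole in any library. The PDK1 value was -0.006 without PLEK2 shRNA replicate 1 and 0.25 without shNC replicate 1. With number 1 left out of both groups and the block kept, the PDK1 value was 0.11.

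Among HIF1A and the hypoxia targets, HIF1A was higher in all 3 pairs, BHLHE40 was lower in all 3 and CA9, VEGFA, EGLN3 and ADM were mixed. HIF1A measured 189, 122 and 111 CPM in shNC and 208, 150.1 and 133 CPM in the knockdown. Replicate 1 was the highest library of both groups, and the groups overlapped. The log2 fold change was 0.22 (SE 0.22, edgeR unadjusted p = 0.352), with the block 0.23 (SE 0.06, unadjusted p = 0.0012, adjusted p = 0.0715). It was 0.50 without shNC replicate 1 and 0.01 without PLEK2 shRNA replicate 1, and with the block and library totals its adjusted p in edgeR was 0.0333. With the block and number 1 left out of both groups, the log2 fold change was 0.28 (edgeR adjusted p = 0.0024). Leaving out number 2 or 3 instead gave 0.21 and 0.22 (edgeR adjusted p = 0.356 and 0.0968). Each of these fits rests on only 2 pairs, so its p-value is less certain than one from all libraries.

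BHLHE40, a transcriptional repressor known as a hypoxia target, measured 95.6, 59.1 and 65.2 CPM in shNC and 78.5, 57.5 and 52.8 CPM in the knockdown. Here too replicate 1 was the highest of both groups. The log2 fold change was -0.22 (SE 0.20, edgeR unadjusted p = 0.306), with the block -0.21 (SE 0.07, unadjusted p = 0.0066, adjusted p = 0.125), and without shNC replicate 1 it was 0.03. It was -0.41 without PLEK2 shRNA replicate 1, and -0.17 with number 1 left out of both groups and the block kept. The vasodilator peptide gene ADM measured 57.7, 48.1 and 43.9 CPM in shNC and 65.9, 44.3 and 37.6 CPM in the knockdown. CA9, at 58 to 89 counts, had a 95% interval from -0.53 to 0.41. The 6 genes of the group thus had no common direction.

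The 25 members without an unadjusted p under 0.05 in either fit had fold changes between -0.16 and 0.12, with a smallest unadjusted p of 0.0664 (edgeR). Leaving number 1 out of both groups and keeping the block, 5 members had an adjusted p under 0.05, PFKL, PFKP, ENO2, SLC16A1 and HIF1A (4.06% of all genes). Leaving out number 2 gave no member (0.138% of all genes), and leaving out number 3 gave PFKP alone (2.29% of all genes). The number of members called thus rested on which pairs were present, in fits on only 2 pairs each.

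Replicate 1 was set against the mean of replicates 2 and 3 in each group, as a description without a test. In 15 of the 34 members replicate 1 lay above both others in both groups (29.0% of all genes), and in 11 it lay below both others in both groups (30.6% of all genes). HIF1A was higher in replicate 1 by 0.70 in shNC and 0.55 in the knockdown on the log2(CPM + 0.5) scale. BHLHE40 was higher by 0.62 and 0.51, ADM by 0.32 and 0.69, PDK1 by 0.31 and 0.34, PGK1 by 0.25 and 0.20, and LDHA by 0.22 and 0.19.

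Replicate 1 was not high for all hypoxia targets or all of glycolysis. SLC2A1 had log2 ratios of -0.33 in shNC and -0.62 in the knockdown, CA9 -0.23 and -0.58, SLC16A3 -0.25 and -0.19, and ALDOA -0.22 and -0.18. EGLN3 was at -0.61 in shNC and -0.08 in the knockdown. For HIF1A, BHLHE40, SLC2A1, CA9, ADM and EGLN3 these differences between replicates of a group were larger in size than the difference between the groups. The same held for PDK1, PGK1, LDHA, SLC16A3 and ALDOA, and for further members such as LDHB, PKM and VEGFA. Over all members the median size of the ratio was 0.137 in shNC and 0.146 in the knockdown, against 0.196 and 0.197 over all genes.

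**Figure D5:**
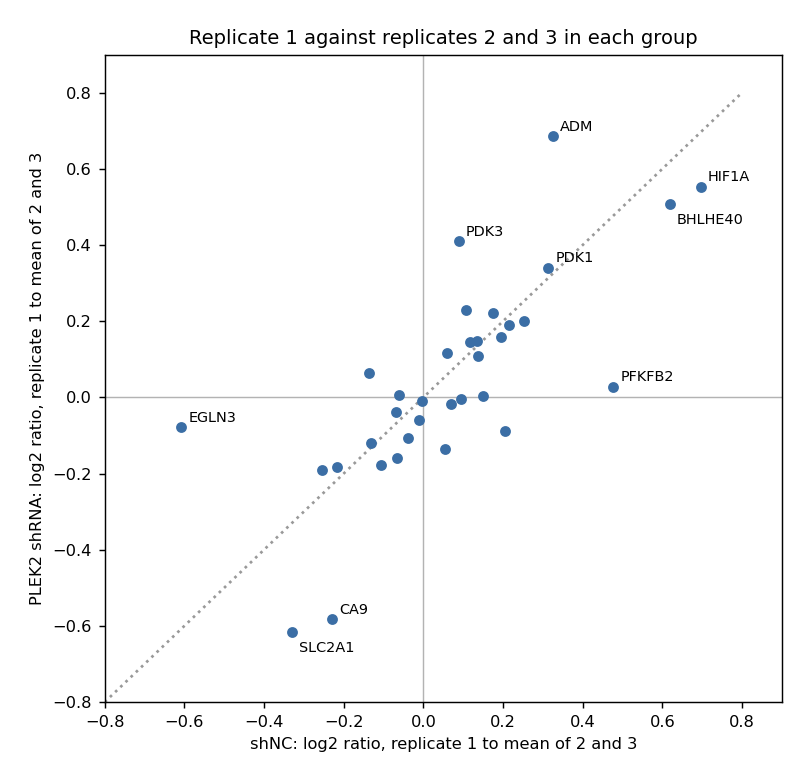
Log2 ratio of replicate 1 to the mean of replicates 2 and 3 (TMM-scaled CPM plus 0.5) for the 34 genes, shNC on the horizontal and PLEK2 shRNA on the vertical axis, with the dotted line marking equal ratios. HIF1A, BHLHE40, ADM and PDK1 lie far up in both groups, and SLC2A1 and CA9 far down.

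Other genes of the pathways gave no call either. Of 29 further glycolysis and pyruvate genes tested, none passed an adjusted p of 0.05 in edgeR without or with the block, and in the block fit 2 were lower and 1 was higher at an unadjusted p under 0.05, with a median log2 fold change of 0.02, against 18.3% of all genes at that threshold. Of 10 pentose phosphate pathway genes, none passed, and 2 were lower and 2 higher at the unadjusted threshold. Of 35 further hypoxia-responsive genes, none passed, and 2 were lower and 2 higher. Without the block, 1 gene of the pentose phosphate list and none of the others had an unadjusted p under 0.05. The shares with the block were 10.3% of the glycolysis list, 40.0% of the pentose phosphate list, 11.4% of the hypoxia list and 66.7% of the epithelial markers. Of the 6 epithelial markers tested, 4 (KRT8, KRT18, KRT19 and CDH1) were lower at an unadjusted p under 0.05 with the block, and the summed epithelial markers ranged from 5059 to 5813 FPKM in shNC and from 4220 to 5380 FPKM in the knockdown, and their part in the differences of the members was not tested.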

How the data were processed

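Per the labels, RNA of HCT116 cells was sequenced in 3 shNC and 3 PLEK2 shRNA libraries, numbered in the titles. The authors deposited fractional read estimates for each gene (estimated counts) and also values scaled by the authors to transcript length and library total, taken here as FPKM, since totals worked out from them over 1522 genes were 99.7% to 100.4% of the observed ones. The submitters' processing notes name HISAT2 2.0.4, Bowtie2 2.2.5, RSEM 1.2.12 and DESeq2 1.4.5. They also name the mouse build GRCm38.p6, while the gene symbols and identifiers are human, so the build behind the counts was not established.

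Counts were rounded, filtered (filterByExpr), scaled by TMM and tested with edgeR 4.0.16 quasi-likelihood in R 4.3.3, with Benjamini-Hochberg adjustment over 12959 genes. The scripts were tested on simulated data. No libraries were alike within sampling noise (chi-square for each gene 3.06 to 20.2 within groups). The numbers were taken to pair the libraries. Deviations from group means over 10161 genes correlated at 0.740, 0.566 and 0.566 for the same number and -0.632 to 0.365 for different numbers. Because replicate 1 stood apart in both groups, the pairing of numbers 2 and 3 rests on 0.566 against 0.364 and 0.365. No source gives a shared day or batch.

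All 34 genes are named with their level. Fold changes with errors are given for genes with p under 0.05, adjusted or not, with or without the block, or with a log2 fold change of at least 0.3 and 10 counts in every library, and otherwise for the gene with the smallest p of its role. Further values were chosen after they were seen. Members and lists were chosen with earlier results of these data known. Alternatives were DESeq2 1.42.0, limma 3.58.1 on log2(FPKM + 1) and log2(FPKM + 0.1), library totals, other filters on low counts, the replicate block, and leaving out libraries. Counts of GPI, PFKM, SLC16A3, PDHA1, PGAM1, PFKFB4 and PFKP were not whole in every library, as happens where reads are shared between loci, while those of the other 27 members were.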

Additional observations from a re-analysis of the deposited data

How the results depend on the processing

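The median log2 fold change of the members, -0.02 under TMM, was 0.0111 with library totals, 0.0113 and 0.0117 with limma on log2(FPKM + 1) and log2(FPKM + 0.1), 0.0094 with the replicate block and library totals, and between -0.037 and 0.0406 when each library was left out in turn, the highest without shNC replicate 1. Its sign thus depended on the scaling, which moved the median of all genes to 0.029 with library totals. Members passing the adjusted threshold, 0 in edgeR without or with the replicate block, numbered 1 with the block in DESeq2, 2 with the block and library totals, and 5, 0 and 1 with the block and number 1, 2 or 3 left out of both groups. Members with an unadjusted p under 0.05, 3 without the block, numbered 9 with the replicate block, 7 with the block in DESeq2, 9 with the block and library totals, 11, 7 and 6 with the block and number 1, 2 or 3 left out, and between 1 and 4 with each library left out, the lowest without PLEK2 shRNA replicate 3. The block turned no direction of the 10 genes with fold changes. BHLHE40, at -0.22, ranged from -0.41 to 0.032 with each library left out, and turned without shNC replicate 1. By share of estimated counts in place of FPKM, the shNC shares were 42.7% for HK1, 65.8% for PFKP, 97.9% for ENO1, 66.8% for LDHA, 69.0% for SLC16A3 and 53.8% for PDK1, and in the PLEK2 shRNA libraries the FPKM shares were 66.7% for PFKP and 78.1% for SLC16A3. Within pairs (replicate block) the PFKP and SLC16A3 share differences gave an exact sign-flip p of 0.25, chosen after seeing the data, as was leaving out PLEK2 shRNA replicate 1, which kept both directions. The members with the fewest counts were SLC2A3, CA9 and EGLN3, whose lowest counts were 34, 58 and 99.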
